A study of Bos taurus with 8 samples.

Results

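The Tribbles pseudokinases TRIB1, TRIB2 and TRIB3 were followed in granulosa cells of cattle, the cells that line the inside of an ovarian follicle and make oestradiol. Every probe whose annotated symbol was one of these 3 names was taken, which gave 7 of the 43794 probes on the array, 3 each for TRIB1 and TRIB2 and 1 for TRIB3. Of these, 6 were bright enough to enter the fit of 36296 probes. At gene level they were 3 of 15229 named genes, of which 13626 were fitted.

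The samples were scraped from individual dominant follicles over 9 mm on the ovaries of Holstein cattle from a slaughterhouse, whose age, cycle stage and pregnancy status are not given in the sources used here. Each follicle was assigned to a phase from the DNA content of its cells by flow cytometry, and the 2 groups were 4 atretic follicles, in regression with death of their granulosa cells, and 4 growing follicles. No treatment is given in the labels. An atretic and a growing follicle were hybridised together on an array, and again with the dyes exchanged, giving 4 pairs and 8 arrays. Their RNA had been amplified before labelling, and a phase stood for the whole scraped cell layer, so fewer cells of a type and less RNA per cell cannot be told apart.

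Tribbles proteins look like kinases but phosphorylate little or nothing, and they act mostly as scaffolds. TRIB1 and TRIB2 bring a bound protein, such as the transcription factor C/EBP-alpha, to the ubiquitin ligase COP1, which marks it for destruction, and they also bind the MAP kinase kinase MEK1. TRIB3 is switched on by the factors ATF4 and CHOP when cells lack amino acids or are stressed in the endoplasmic reticulum, and it binds the survival kinase AKT. In granulosa cells, the AKT and FOXO pathway lies downstream of follicle-stimulating hormone and insulin-like growth factors.

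Only TRIB2 carried a difference between the phases past the selection described below, and it was one of the genes that the study quantified by qRT-PCR on these follicles, so its choice is not independent of them. The bovine TRIB2 primers of that assay are shown because they are the designed sequences of this gene in the study's materials, each 24 bases long with 50% G and C, written 5′ to 3′.
TRIB2 forward: cacacatcttggcatcgcactgtt
TRIB2 reverse: agcacccaggtttcacatcagtct
No qRT-PCR value is used here.

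The arrays gave a usable signal, with a median intensity over local background of 4.10 to 5.45 in Cy5 and 8.97 to 13.6 in Cy3, and 49.1% to 71.7% of probes in a channel brighter than the 95th percentile of the negative control spots. Some pairs and follicles stood apart. Across probes, the correlation of pair 1 ratios with those of pairs 2, 3 and 4 was -0.22, -0.37 and -0.06, whereas the other pairs were correlated at 0.23 to 0.50. Aromatase, CYP19A1, the enzyme that makes oestradiol, was measured at a log2 intensity of 15.91, 8.80, 11.77 and 15.32 in atretic follicles 1 to 4 (numbered by pair), against 11.43, 7.42, 15.76 and 14.66 in the growing ones. The growing follicle of pair 2 was the lowest of all 8 for aromatase and also for FSHR, the receptor of follicle-stimulating hormone, at 7.85 against 10.02 to 11.35 in the other growing follicles and 9.50 to 10.39 in the atretic ones. Values without pair 1 and without pair 2 are therefore given for the members. Of the transcription factors listed as granulosa markers, GATA4 was at 14.07 to 14.72 in atretic and 13.90 to 14.46 in growing follicles. NR5A2 was at 11.98 to 15.01 and 11.82 to 13.52. FOXL2 was far dimmer, at 7.32 to 8.64 in atretic and 7.49 to 9.17 in growing follicles. It exceeded the negative controls in 6 of 8 atretic and 8 of 8 growing channels.

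All levels below are log2 intensities of a follicle's channel, averaged over its 2 arrays, and are compared only within a probe. All ratios are log2 values of atretic over growing and carry the limma model's standard error (SE, n = 4 pairs). The study's threshold asks for a change of 1.5-fold or more in either direction and an unadjusted p under 0.05. It sets no limit on false calls over the whole array.

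By 2 of its 3 probes, TRIB2 mRNA was higher in the atretic follicle than in its growing partner in 4 of 4 pairs. By the brightest TRIB2 probe (probe 1, EMBV3_27266), the atretic follicles of pairs 1 to 4 stood at 15.86, 15.13, 15.89 and 15.77, against 14.29, 11.48, 15.08 and 15.09 in the growing follicles. The atretic follicles lay closer together (SD 0.36) than the growing ones (SD 1.71), chiefly because the growing follicle of pair 2 was far below the others. The median SD among atretic follicles over fitted probes was 0.24. The groups did not overlap, but the lowest atretic and the highest growing follicle were only 0.047 apart, and under 3 of 6 other ways of correcting and normalising the intensities they overlapped. With loess alone, for example, the lowest atretic follicle was at 15.11 and the highest growing one at 15.25. Among fitted genes, 3.62% had groups that did not overlap. A ratio of the same sign in all pairs was found for 15.1% of fitted genes.

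**Figure D1:**
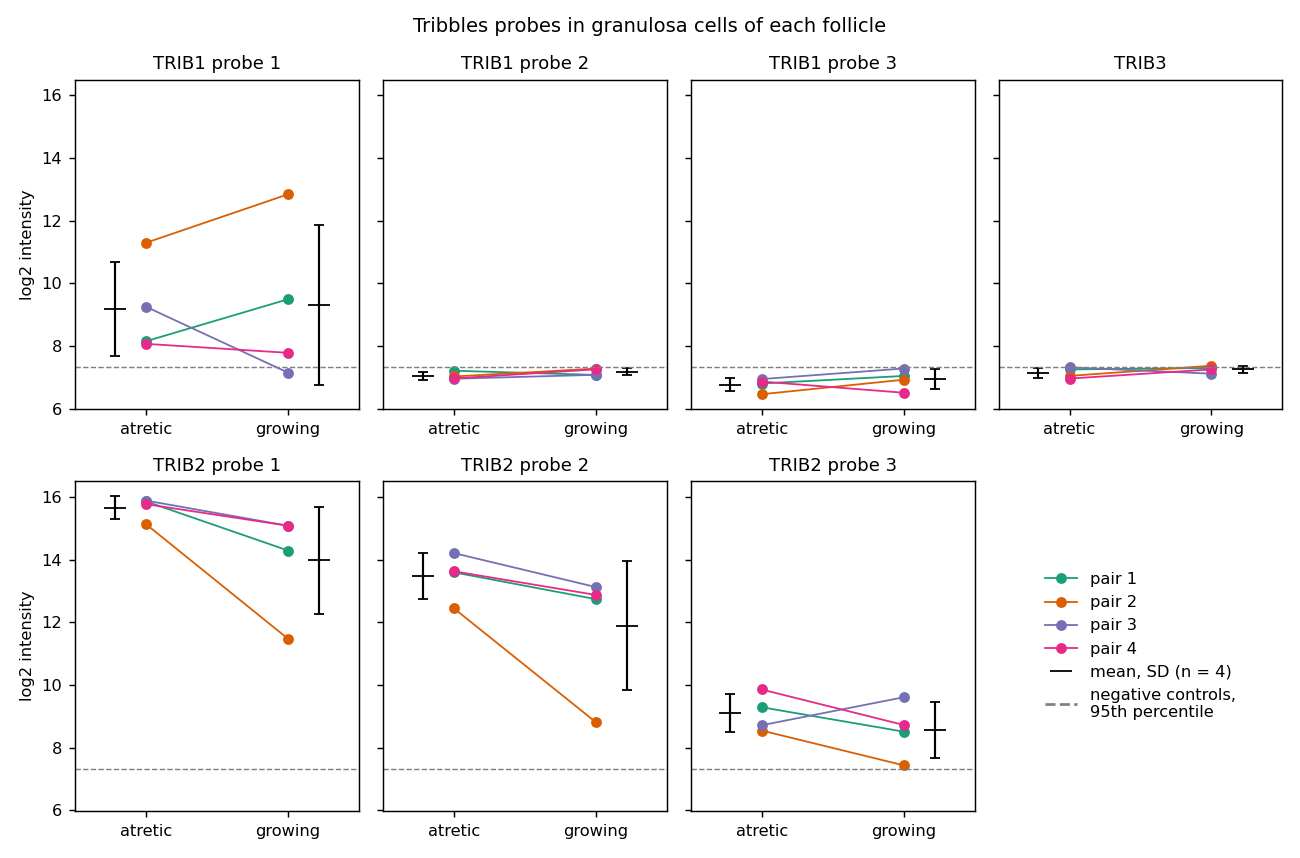
Log2 intensity (y axis) of each Tribbles probe in the atretic and growing follicles of pairs 1 to 4, lines joining the follicles of a pair, with the mean and SD (n = 4) at the sides and the median 95th percentile of the negative controls (7.32) as a dashed line. TRIB2 probe 1 is at 15.13 to 15.89 in atretic and 11.48 to 15.09 in growing follicles, while TRIB3 and TRIB1 probes 2 and 3 lie near the dashed line.

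The pair ratios of TRIB2 probe 1 were 1.57, 3.66, 0.81 and 0.69, with a mean of 1.68 ± 0.54 (SE, 95% confidence interval 0.28 to 3.08), or 3.20-fold. Pair 2 was the largest of them. The unadjusted p of limma was 0.0272 and the probe ranked 1279 of 36296 by it, so that it passed the study's threshold but not the adjusted one (limma adjusted p = 0.759). An exact two-sided permutation of the signs of the 4 ratios gave p = 0.125, the smallest that 4 pairs allow. Over all probes, 1275 passed the study's threshold, which is 3.51%, and 656 of them were higher in atretic follicles, or 1.81%. By an adjusted limma p under 0.05, 0 probes were called, 0% of those fitted, with 2324 at an unadjusted p under 0.05. With the 8 arrays fitted singly and the pair as a replicate block, 2244 probes passed the study's threshold and 21 the adjusted one, and TRIB2 probe 1 had an adjusted p of 0.0909, within a range of 0.0909 to 0.996 over 19 alternatives. That fit uses a single correlation of 0.46 between dye swaps for all probes. Where the swaps of a probe agree more closely, they count in part as separate replicates. The SE of that fit, 0.39 for TRIB2 probe 1, and its p-values may then be too small.

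The second TRIB2 probe (EMBV3_14703) showed the same order within each pair. It stood at 13.60, 12.45, 14.21 and 13.63 in the atretic follicles, against 12.74, 8.81, 13.13 and 12.88 in the growing ones. Here the groups overlapped, since the atretic follicle of pair 2 was below 3 of the growing follicles. Its mean ratio was 1.58 ± 0.54 (limma adjusted p = 0.760), again past the study's threshold. The third probe (EMBV3_06689) was dimmer, at 9.29, 8.55, 8.72 and 9.86 in atretic and 8.51, 7.44, 9.61 and 8.73 in growing follicles. It was higher in the atretic follicle in 3 pairs and lower in pair 3, and its mean of 0.53 ± 0.39 did not pass (limma adjusted p = 0.867). Across the 8 follicles, probes 1 and 2 correlated at Pearson r = 0.97 (Spearman rho = 0.81), and r was 0.87 without the 2 follicles farthest from the median of probe 1. Probe 3 followed probe 1 less closely, at r = 0.81 (rho = 0.50) over 8 follicles and 0.25 without the 2 farthest. Follicles of a pair share arrays, so these 8 points are not independent.

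The size of the TRIB2 difference rested on pair 2. Without that pair, the mean was 1.02 ± 0.23 for probe 1 and 0.90 ± 0.14 for probe 2, both still past the study's threshold. Without pair 1, probe 1 averaged 1.72 ± 0.67 and probe 2 averaged 1.82 ± 0.63. The unadjusted limma p of probe 1 was then 0.0592, so it no longer passed the study's threshold, while probe 2 did. Probe 2 was lost without pair 3, at 1.75 ± 0.69, and without pair 4, at 1.86 ± 0.66. Both probes kept a positive mean in 19 of 19 alternatives. Leaving out a pair could not turn the sign, since every pair ratio of both probes was positive. The alternatives of intensity filter, pair block and variance model left the mean unchanged.

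**Figure D2:**
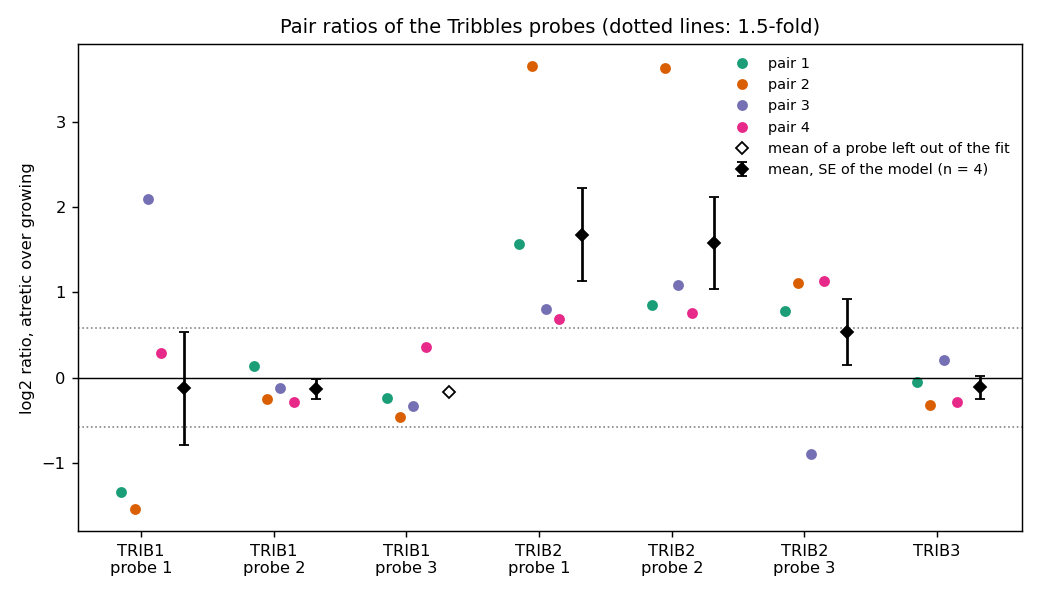
Log2 ratio of atretic over growing (y axis) of each Tribbles probe, with a point per pair, the mean and SE of the model as a diamond (n = 4 pairs) and dotted lines at 1.5-fold. TRIB2 probes 1 and 2 are above 0 in every pair with the highest value in pair 2, whereas the pairs of TRIB1 probe 1 lie on both sides of 0, from -1.55 to 2.10.

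TRIB2 probe 1 lay near the top of the scanner's scale. Its raw median intensity ran from 38569 to 64966 in atretic and from 2611 to 44734 in growing channels. The highest atretic values, 64887 in pair 3 and 64966 in pair 4, were just below the limit of 65535. Whether single pixels of these spots were saturated was not tested, nor whether this compressed the ratio or the spread among atretic follicles. The ratio was larger with the atretic follicle in Cy5 than in Cy3 in 4 of 4 pairs, by 0.39 to 0.61 on the log2 scale, a difference that is averaged out within a pair. For probe 2 the same difference ran from -0.16 to 0.52. All arrays with the atretic follicle in Cy5 were on a slide of their own, so slide and dye orientation cannot be told apart. On that slide alone, probe 1 averaged 1.91 ± 0.51, and on the other 2 slides 1.44 ± 0.53, past the study's threshold in both.

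TRIB1 varied widely from follicle to follicle and did not follow the phases. Its brightest probe (probe 1, EMBV3_43441) stood at 8.15, 11.30, 9.25 and 8.07 in the atretic follicles of pairs 1 to 4, against 9.49, 12.84, 7.15 and 7.78 in the growing ones. Both follicles of pair 2 were the highest of their phase, and the groups overlapped over most of their range. The SD was 1.503 among atretic and 2.55 among growing follicles (n = 4 each), where the median over fitted probes was 0.24 and 0.25. This put TRIB1 probe 1 above 99.6% of fitted probes in spread among atretic follicles and above 99.9% among growing ones. The pair ratios were -1.34, -1.55, 2.10 and 0.29, so 2 pairs lay on each side of 0. Their mean of -0.12 ± 0.67 (95% confidence interval -1.84 to 1.59, limma adjusted p = 0.985, exact sign permutation p = 1) left an interval that reaches a 3-fold difference either way. Dye-swapped arrays agreed on the sign in 4 of 4 pairs, and their ratios differed by at most 0.45. All 8 atretic and 6 of 8 growing channels were above the negative controls. The mean was 0.28 without pair 1 and 0.35 without pair 2.

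The other TRIB1 probes gave no comparable pattern. Probe 2 (EMBV3_19127) lay at 6.95 to 7.21 in atretic and 7.08 to 7.28 in growing follicles, with 2 of 8 atretic and 1 of 8 growing channels above the negative controls, and a mean ratio of -0.13 ± 0.12. Probe 3 (EMBV3_04579) was too dim for the fit, at 6.46 to 6.94 in atretic and 6.51 to 7.28 in growing follicles, above the controls on 0 and 1 of 8 channels. The large spread of TRIB1 therefore rests on a single probe, and its correlation with probe 2 over the 8 follicles was 0.20.

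TRIB3, the stress-induced member, was at the edge of detection in both phases. Its only probe (EMBV3_11649) stood at 7.25, 7.05, 7.32 and 6.96 in the atretic follicles, against 7.30, 7.37, 7.12 and 7.25 in the growing ones, with 2 of 8 atretic and 4 of 8 growing channels above the negative controls. All 8 follicles lay within 0.41 on the log2 scale. The pair ratios were -0.05, -0.32, 0.20 and -0.29, with a mean of -0.12 ± 0.13 (95% confidence interval -0.46 to 0.23, limma adjusted p = 0.913). The dye swaps agreed in sign in 2 of 4 pairs only. A difference in TRIB3 was not detectable at this signal.

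Over the 8 follicles, TRIB1 probe 1 had a negative correlation with each TRIB2 probe, which for TRIB2 probes 1 and 2 rested on 2 follicles. The growing follicle of pair 2 had the highest TRIB1 and the lowest TRIB2 of all 8, and the atretic follicle of pair 2 was the highest of its phase for TRIB1 and the lowest for TRIB2. Between probe 1 of TRIB1 and probe 1 of TRIB2, Pearson r was -0.74 and Spearman rho -0.24 over 8 follicles, and r was -0.17 without the 2 follicles farthest from the median of TRIB1, so it rested on those follicles. With TRIB2 probe 2, TRIB1 had r = -0.78 (rho = -0.57), and r turned to 0.20 without the 2 farthest. With the dimmer TRIB2 probe 3, TRIB1 had r = -0.86 (rho = -0.86) and -0.68 without the 2 farthest. These are among the 21 pairs of member probes computed, given as a description.

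TRIB1 also ran against aromatase. Over the 8 follicles, TRIB1 probe 1 and CYP19A1 had r = -0.97 and rho = -0.83, with r = -0.90 without the 2 follicles farthest from the median of TRIB1. The follicles with the lowest aromatase in each phase, both of pair 2, had the highest TRIB1, and both phases held follicles at either end. For TRIB2 probe 1 and CYP19A1 the values were r = 0.69 and rho = 0.48, falling to r = 0.18 without the 2 farthest, and for TRIB3 they were r = -0.34 and rho = -0.48. Some markers of other cells rose with TRIB1 probe 1. The leukocyte markers CD53, LAPTM5 and CD68 had rho = 0.86, 0.71 and 0.67 (r = 0.49, 0.45 and 0.51). The other leukocyte markers had a rho from -0.10 to 0.36. The endothelial marker VWF, near background, had rho = 0.81 (r = 0.80), and the other endothelial ones -0.62 to 0.60. CYP19A1 and these markers were singled out after their values were seen, among 58 marker genes compared with each member.

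**Figure D3:**
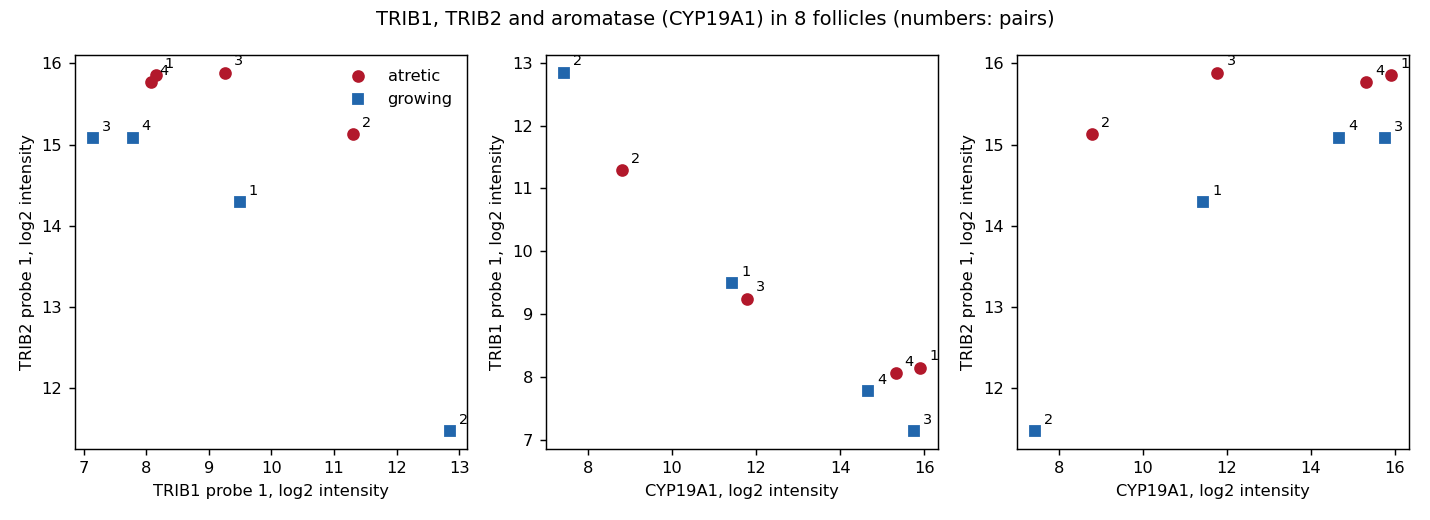
Log2 intensities of TRIB1 probe 1, TRIB2 probe 1 and CYP19A1 plotted against each other, a point per follicle, with atretic follicles as circles, growing follicles as squares and the number of the pair beside each. TRIB1 declines with aromatase over all 8 follicles (r = -0.97), and the growing follicle of pair 2 sits alone at the end of each panel, at 12.84 for TRIB1, 11.48 for TRIB2 and 7.42 for CYP19A1.

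The genes whose levels most resembled those of a member were looked up among 6571 fitted genes with a range of at least 1 over the 8 follicles. For TRIB1, the highest were CORO7, a coronin (r = 0.99, rho = 0.88), the metalloproteinase inhibitor TIMP1 (r = 0.98, rho = 0.98) and JARID2, a cofactor of the Polycomb complex (r = 0.98, rho = 1). TIMP1 stood at 9.19, 12.25, 10.12 and 8.41 in atretic and 10.96, 15.01, 8.38 and 8.22 in growing follicles. The lowest were INHBB, the beta B subunit of activin and inhibin (r = -0.97, rho = -0.83), and RNF19A, a ubiquitin ligase (r = -0.97, rho = -0.93). Each of these 5 kept an r of 0.88 to 0.93 in size without the 2 follicles farthest from the median of TRIB1, and 0 of them passed the study's threshold between the phases.

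For TRIB2, the highest were JTB, a membrane protein (r = 0.98, rho = 0.90), the homeobox gene MKX (r = 0.98, rho = 0.90) and LOC781851 (r = 0.97, rho = 0.83). Without the 2 follicles farthest from the median of TRIB2, these had r = 0.84, 0.84 and 0.68. The lowest were TSPO, a protein of the outer mitochondrial membrane (r = -0.99, rho = -0.98, and -0.94 without the 2 farthest), and the chemokine receptor CXCR4 (r = -0.98, rho = -0.90, and -0.73). TSPO had 7.97, 8.20, 7.73 and 7.91 in atretic and 8.43, 10.16, 8.31 and 8.27 in growing follicles, and its highest follicle, the growing one of pair 2, was the lowest for TRIB2. MKX (0.72 ± 0.21) and TSPO (-0.84 ± 0.31) passed the study's threshold in the limma fit. Both were picked by their correlation with TRIB2 over the same follicles, so this is not a result separate from that of TRIB2. For TRIB3, near background, 0 genes reached an r of 0.9, against 62 for TRIB1 and 59 for TRIB2. Its highest were ZNF283 (r = 0.88), STEAP1 (0.87) and TYW3 (0.85), and its lowest PEG10 (-0.94) and ABCF3 (-0.90).

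The genes that work with the Tribbles proteins passed the study's threshold in few cases with all 4 pairs, and in more without pair 1. Of 79 listed genes, 73 were on the array and 72 in the fit, 33 with a positive and 39 with a negative mean ratio and a median of -0.07, against 0.01 over all fitted genes. The study's threshold was passed by 0 higher and 2 lower, or 2.78%, against 5.11% of all fitted genes, which were 696 of 13626. Without pair 1, 14 of the 72 passed, or 19.4%, against 1796 of all fitted genes, or 13.2%, so the order of these shares turned round. With the pair as a replicate block it was likewise 10 of the 72, or 13.9%, against 8.98% of all fitted genes, in a fit whose p-values may be too small as given above.

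Among the ubiquitin ligase partners, 6 of 9 were higher and 3 lower on average, with a median of 0.13 and 0 past the study's threshold. COP1, the ligase that Tribbles scaffolds recruit (listed under its older symbol RFWD2), stood at 9.55, 9.68, 10.10 and 10.17 in atretic and 9.55, 9.28, 9.19 and 9.63 in growing follicles, a ratio of 0.46 ± 0.17 that missed the fold (limma adjusted p = 0.774). It passed the study's threshold with median centring only (0.61, limma adjusted p = 0.540) and without pair 1 (0.62, limma adjusted p = 0.276). CUL4A, a cullin of the same ligase, had 0.46 ± 0.12, with ratios of the same sign in 4 of 4 pairs, but its other 2 probes were at -0.09 and -0.02. It passed the study's threshold on slides 204 and 248 alone (0.73). STK40, the nearest relative of the family, was close to background at 6.95 to 7.39 in atretic and 6.63 to 7.48 in growing follicles (0.07 ± 0.23).

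The transcription factors and other proteins bound by Tribbles had 7 higher and 7 lower means among 14 fitted genes, with a median of -0.01 and 0 past the study's threshold. CEBPA, the C/EBP factor best known as a target of TRIB2-driven degradation, exceeded the negative controls in 1 of 8 atretic and 1 of 8 growing channels (0.11 ± 0.13), so its mRNA could not be compared. CEBPB was not matched by symbol and is not analysed here. CEBPD, which pairs with other C/EBP factors, had 14.69, 15.76, 15.65 and 15.55 in atretic and 15.72, 15.67, 13.49 and 13.88 in growing follicles (0.72 ± 0.58), lower in the atretic follicle of pair 1 and higher in the other 3. Without pair 1, CEBPD averaged 1.30 and passed the study's threshold (limma adjusted p = 0.370), and without pair 3 it averaged 0.24 and did not. The other, dimmer CEBPD probe was at -0.11 ± 0.42. E2F1, a driver of DNA replication, averaged -0.82 ± 0.43, all of it from pairs 3 and 4 with ratios of -1.77 and -1.73. Without pair 1, E2F1 was at -1.17 and passed the study's threshold, as it did with array weights (-1.10) and with the replicate block (-0.82).

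In the MAP kinase pathway, 3 of 11 fitted genes were higher and 8 lower on average, with a median of -0.21 and 1 past the study's threshold. This was MAPK8, which codes for the stress kinase JNK1. MAPK8 stood at 12.64, 12.33, 12.81 and 11.28 in atretic and 15.04, 14.17, 13.11 and 12.80 in growing follicles. It was lower in the atretic follicle in 4 of 4 pairs (-1.52 ± 0.36, limma adjusted p = 0.716), although the groups just overlapped, and its other, dimmer probe was at -0.08 ± 0.17. MAP2K1, the gene of MEK1, had a mean of -0.60 ± 0.56 that came from pair 2 alone, with a ratio of -2.71 there and -0.02 to 0.30 in the others.

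In the AKT and FOXO pathway, 7 of 11 fitted genes were higher and 4 lower, with a median of 0.18 and 0 past the study's threshold. AKT1 was at -0.12 ± 0.38 and FOXO3, a FOXO factor that promotes cell death, at 0.13 ± 0.15 and near background. FOXO1, the main FOXO factor of granulosa cells, had 10.72, 12.87, 11.60 and 11.56 in atretic and 12.28, 9.08, 11.52 and 10.87 in growing follicles, so its mean of 0.75 ± 0.88 held ratios from -1.57 to 3.79. PIK3R1, the regulatory subunit of phosphoinositide 3-kinase, averaged 0.63 ± 0.34, and passed the study's threshold without pair 3 (1.04), on slide 203 alone (0.86) and with the replicate block (0.63).

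The integrated stress response, which controls TRIB3 in other cells, had 9 higher and 17 lower means among 26 fitted genes, a median of -0.12, and 1 gene past the study's threshold. ATF4 (-0.18 ± 0.20) and DDIT3, which codes for CHOP (0.05 ± 0.24), were detected on every channel and differed by less than the spread between pairs. The other, dimmer DDIT3 probes were at -0.10 and -0.21. ASNS, the asparagine synthetase that ATF4 induces, had 11.26, 13.28, 14.03 and 12.35 in atretic and 12.92, 12.51, 10.63 and 10.55 in growing follicles (1.07 ± 0.83), lower in the atretic follicle of pair 1 and higher in the other 3. Without pair 1, ASNS averaged 1.99 and passed the study's threshold (limma adjusted p = 0.289), and without pair 3 it averaged 0.30 and did not. PHGDH, the first enzyme of serine synthesis, was the gene that passed, lower at 7.98, 7.32, 8.52 and 7.79 in atretic and 7.94, 8.58, 9.77 and 9.96 in growing follicles (-1.16 ± 0.36, limma adjusted p = 0.759). In pair 1 its ratio was 0.03, and it no longer passed when pair 2, 3 or 4 was left out, at -1.13, -1.13 and -0.82.

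**Figure D4:**
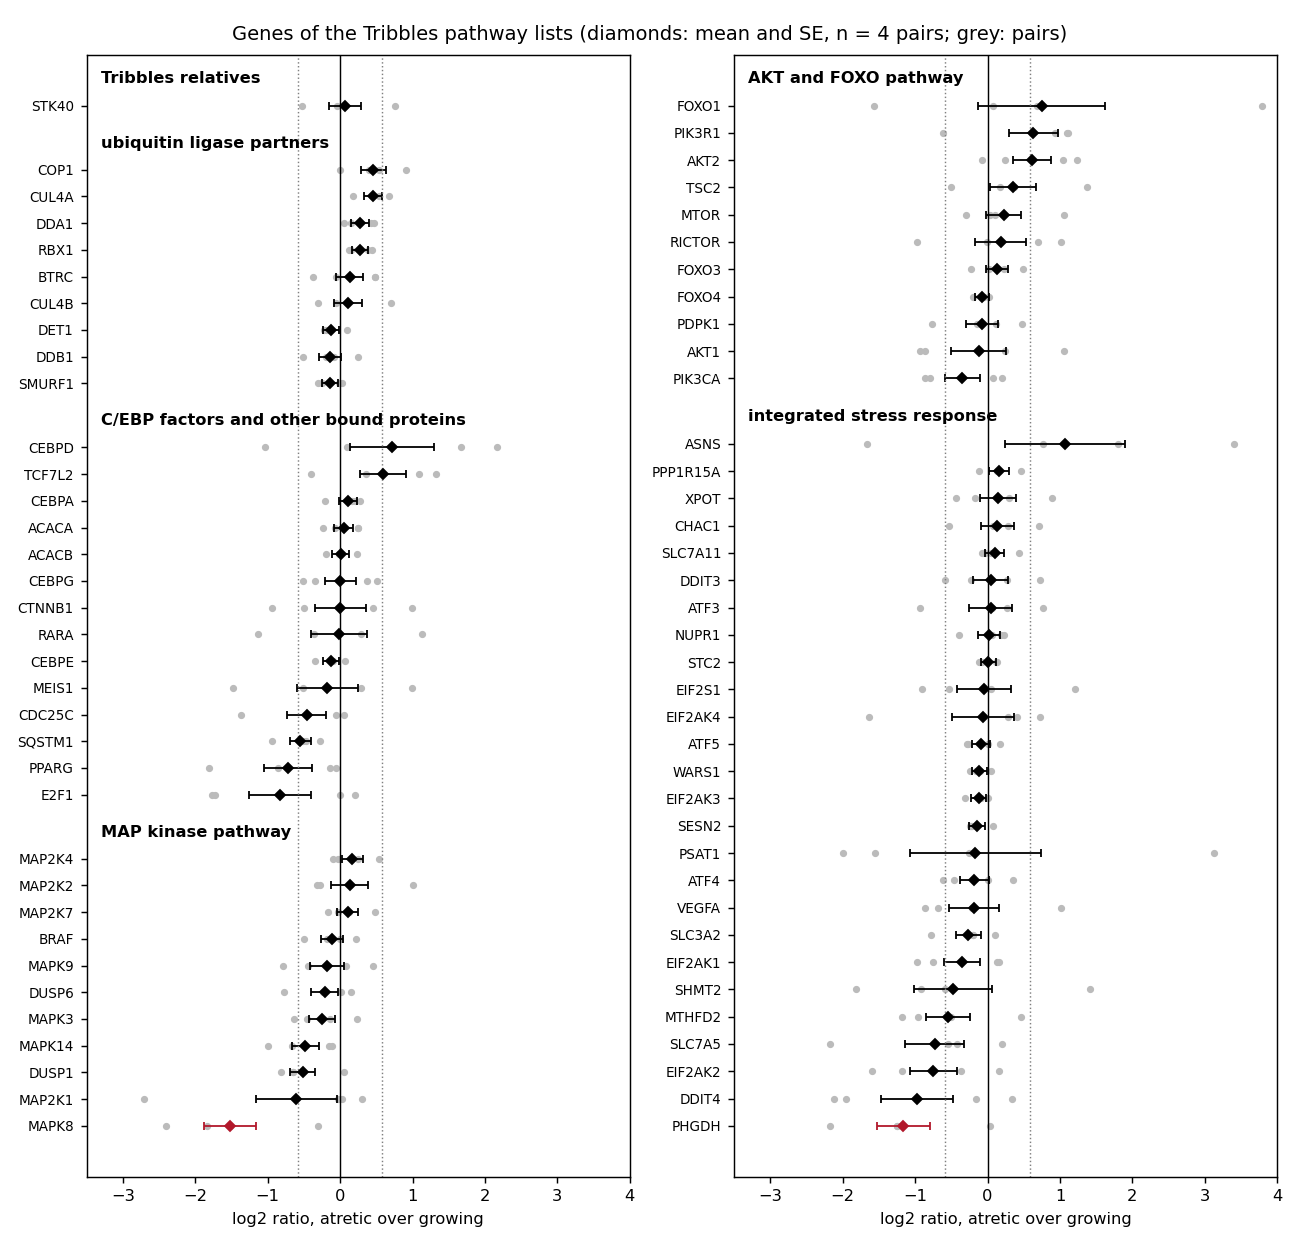
Log2 ratio of atretic over growing (x axis) of the 72 fitted genes of 6 lists, with the mean and SE as diamonds (n = 4 pairs), the pairs as grey points and dotted lines at 1.5-fold. MAPK8 (-1.52) and PHGDH (-1.16), in red, are the genes past the study's threshold.

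Several markers of other cells were at an extreme in the growing follicle of pair 2, where TRIB2 was lowest and TRIB1 highest. The collagen genes COL1A1 and COL1A2 and the proteoglycan LUM, listed as theca markers, were highest there, at 9.37, 11.39 and 11.68, and in the atretic follicle of pair 2 they were the lowest of their phase, at 7.80, 7.52 and 8.05. The theca markers CYP17A1, INSL3, COL3A1, DCN and STAR were higher in another follicle than in the growing one of pair 2. LHCGR was the lowest of all 8 follicles in that growing follicle, at 6.76. Over 8 follicles, the 9 theca markers had an r with TRIB2 probe 1 from -0.96 for COL1A1 to 0.62 for LHCGR, and the pericyte marker RGS5 had 0.91. RGS5 was near background, at 7.42 to 7.58 in atretic and 7.08 to 7.54 in growing follicles. The other smooth muscle and pericyte markers had an r from -0.62 for CNN1 to 0.31 for MYH11. Without the 2 follicles farthest from the median of TRIB2, r was -0.26 for COL1A1, 0.36 for LHCGR and 0.01 for RGS5. They were singled out as extremes after their values were seen. Over the 9 theca markers the mean level was 8.17 to 10.43 in atretic and 8.57 to 9.94 in growing follicles, with 0 past the study's threshold, and CYP17A1, the enzyme that marks theca cells, exceeded the negative controls in 4 of 8 atretic and 7 of 8 growing channels. The atretic follicle of pair 1 had the highest mean over the theca list and the highest CYP17A1, at 9.49. It was also the highest for LHCGR (13.05), STAR (13.98) and DCN (11.44), and for aromatase (15.91). INSL3, COL1A1, COL1A2, COL3A1 and LUM were higher in another follicle, so this mean is not a measure of theca content. CYP17A1 was at 7.19 to 7.42 in the other atretic and 7.60 to 9.12 in the growing follicles. The paper left an atretic sample out of its qRT-PCR analysis for high CYP17A1, which it read as likely theca contamination. By the paper's wording, the samples it quantified were the 4 hybridised ones of each stage plus additional ones. This would place the excluded sample among the additional ones, although the paper does not say so directly. Of the 12 granulosa markers, AMHR2, the receptor of anti-Müllerian hormone, passed as higher (1.61 ± 0.50), and the list averaged 11.52 to 13.07 in atretic and 11.19 to 13.20 in growing follicles. Endothelial markers averaged 7.30 to 7.49 in atretic and 7.29 to 7.47 in growing follicles, and leukocyte markers 7.46 to 8.03 in atretic and 7.41 to 8.10 in growing follicles. Smooth muscle and pericyte markers averaged 8.36 to 9.22 in atretic and 8.09 to 8.78 in growing follicles. Erythrocyte markers were at 7.22 to 7.57 in atretic and 7.34 to 7.47 in growing follicles, and oocyte markers at 7.35 to 7.47 in atretic and 7.20 to 7.41 in growing ones. No gene of these 5 lists passed the study's threshold. The endothelial marker PECAM1 exceeded the negative controls in 0 of 8 atretic and 1 of 8 growing channels. The part of other cells in the TRIB1 and TRIB2 values was not tested. The study's reference genes averaged -0.23 ± 0.22 for EIF2B2 and 0.21 ± 0.13 for SF3A1.

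**Figure D5:**
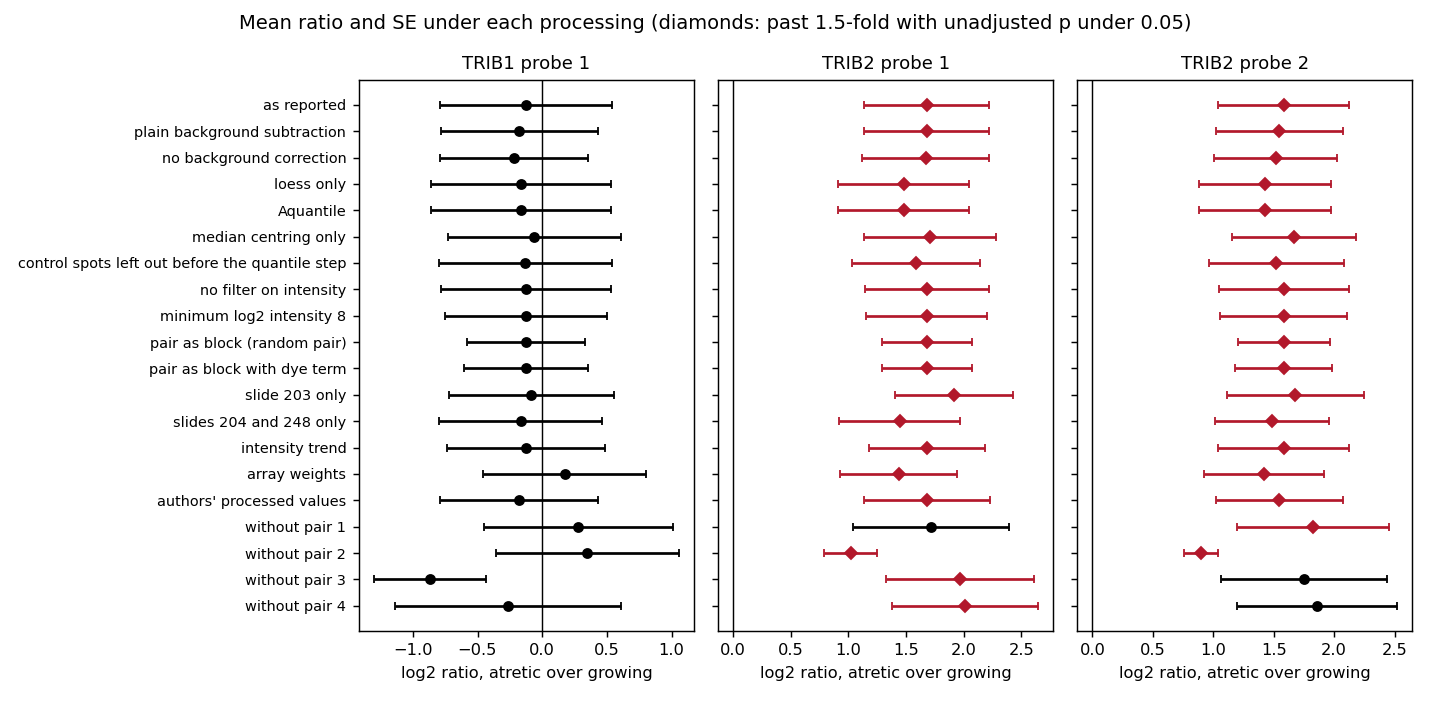
Mean log2 ratio of atretic over growing with its SE (x axis) for TRIB1 probe 1 and TRIB2 probes 1 and 2 under the reported processing (first line) and 19 alternatives (y axis), diamonds marking values past the study's threshold. TRIB2 stays above 0 throughout, with its lowest value without pair 2 (1.02 for probe 1 and 0.90 for probe 2), and TRIB1 changes sign.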

How the data were processed

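The 2-colour Agilent EmbryoGENE bovine arrays were scanned with automatic gain, and the authors deposited linear intensities of spots and their surroundings (median pixels) for Cy5 and Cy3. The authors also deposited processed values, log2 ratios of Cy5 to Cy3 made by subtracting background, then loess and quantile normalisation. Ratios rebuilt from the intensities correlated with them at 0.9986 to 0.9999, which settled scale and direction.

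Intensities were corrected with normexp (offset 50) and normalised by loess within arrays, with no weight for the 1426 control spots, and by quantiles between arrays. Ratios were turned to atretic over growing and dye swaps averaged, which left n = 4 pairs. Pairs were numbered from the array positions or titles. The pairing is by design, as both follicles share an array, and dye-swapped arrays of a pair correlated at 0.576 to 0.728, with 8 of 8 arrays closest to their own pair. Probes averaging 7 or more in log2 intensity were tested against 0 by a two-sided limma fit (3.58.1, in R 4.3.3), and p-values were adjusted over all of them by Benjamini-Hochberg. The sources used here do not say whether the follicles came from separate animals, and p-values cover only the spread among the follicles sampled. The number of arrays limits the precision.

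Names came from the platform annotation, which gave 1 symbol to 21790 probes and none to 22004. A gene was represented by its probe of highest mean intensity, and all Tribbles probes are reported. RefSeq genes (ARS-UCD2.0) served for 2 older symbols. Pathway genes were named if past the study's threshold, if among the 2 largest ratios of a list, or from a fixed set of 10. The members, lists and rules were chosen with earlier results of these data known. The fit was tested on simulated data. Alternatives covered background correction, normalisation, intensity filter, pair block, slides, variance model, array weights, the authors' processed values and leaving out each pair. The alternative with control spots left out before the quantile step was added after seeing the data.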

Additional observations from a re-analysis of the deposited data

Results flagged for a closer look

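Within a phase, a follicle lay far from the other 3 in 2 of 50 groups of 4 follicles examined for the reported genes, where chance alone marks about 1 in 20. For TRIB2 probe 1 among atretic follicles, pair 2 was the lowest at a log2 intensity of 15.13, with the others at 15.77 to 15.89, a gap of 0.847 of the whole range, past Dixon's critical value. In Cy5 those others lay near the top of the scanner's scale, and whether this narrowed their spread was not tested. For TRIB2 probe 2 among growing follicles, pair 2 was the lowest at 8.81, with the others at 12.74 to 13.13, a gap of 0.911 of the range. Both follicles were of the same pair, which also had the highest TRIB1 of each phase.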

How the results depend on the processing

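Over 19 alternatives, TRIB2 probe 1 kept its direction in 19 and its place past the study's threshold in 18. Its direction could not change in those that left out a pair or kept the mean, as every pair ratio was positive. Leaving out a pair gave 1.02 to 2.01 for TRIB2, -0.87 to 0.35 for TRIB1 and -0.22 to -0.05 for TRIB3. The third TRIB2 probe gave 0.53 and passed in 1 of 19. TRIB1 turned to 0.17 with array weights, and TRIB3 to 0.13 on slides 204 and 248 only. With the pair as a replicate block, 2244 probes and 10 pathway genes passed the study's threshold, 2162 and 10 with a dye term added, 2565 and 6 on slide 203 only, 2188 and 8 on slides 204 and 248, 781 to 3402 and 2 to 14 without a pair, the most without pair 1 and the fewest probes without pair 4. Pathway genes past it were 4 with median centring only and 7 with array weights. The share of passing probes that were higher in atretic follicles was 51.5%, and 72.8% with median centring. The cause of these shifts was not tested. Small ratios changed sign for STK40 and CEBPA (-0.17 and -0.19 on slide 203), FOXO3 (-0.0164 there), AKT1 and DDIT3 (0.0471 and -0.0196 on slides 204 and 248), and without a pair for STK40 (-0.16 to 0.26), MAP2K1 (-0.90 to 0.10), FOXO1 (-0.27 to 1.52), AKT1 (-0.52 to 0.15) and DDIT3 (-0.18 to 0.25). The block, whose p-values may be too small, brought E2F1 and PIK3R1 past the threshold and changed no other call of a named gene. TRIB3 and TRIB1 probe 2 could not be fitted at a minimum intensity of 8. Signal over background limits TRIB3, CEBPA, STK40 and TRIB1 probes 2 and 3.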
